A study of Mus musculus with 12 samples.

Results

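Transcripts of 6 genes known from oligodendrocytes, Mobp, Mbp, Mag, Cnp, Fa2h and Gsn, were followed in 12 libraries of mouse bone-marrow derived macrophages, to ask whether RNA arrived in the macrophages together with myelin. The 6 were found by symbol among 24728 genes, and each symbol had a single entry. They were chosen by their counts in the 6 libraries with myelin against the 6 without, so all values of that contrast are descriptions and no test of it is read for them. Oligodendrocytes wrap axons in myelin, a stack of lipid-rich membrane held together on its cytoplasmic side by basic proteins. Some of their messenger RNAs, that of Mbp above all, are carried out along the processes and translated at the growing sheath, so myelin taken from tissue can hold RNA besides lipid and protein. The 6 did not share 1 pattern. Mobp was counted, at a very low level, in every library with myelin and in none without. Mbp, Mag, Cnp and Gsn were counted in all 12 libraries, and Fa2h had 1 count in all.

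The macrophages carried dTomato and were sorted from ex vivo assays with dissociated brain tumor, per the labels. The groups are named Full Tumor, Myelin Alone, Tumor without Myelin and Control, with 3 libraries each, and the mn numbers 957, 958 and 016 each occur once per group. Full Tumor and Myelin Alone are the libraries with myelin, and Full Tumor and Tumor without Myelin those with tumor material. The labels do not say what "mn" means, what Control cells were given, how myelin was obtained or removed, how long cells were exposed, their age or strain, or which tumor model was used. The design text of the study names mouse gliomas made by forced expression of a platelet-derived growth factor, in an Ink4a/Arf knockout or with p53 knocked down. The labels do not tie the 3 libraries of a group to different animals, and p-values therefore cover the spread among these samples alone, which may be technical.

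Libraries held 17071673 to 21689624 counts, and 16465 to 17861 genes were detected in each. A list of 8 macrophage genes, Lyz2 and Cd68 among them, summed to 13282 to 18146 CPM in every library, where CPM is a count scaled to library size. A single count was worth 0.0472 to 0.0607 CPM, and a count of 0 was taken to allow up to 3 counts, or 0.142 to 0.182 CPM. In bulk RNA, fewer cells of a type and less RNA per cell cannot be told apart. Libraries carry a running number in their names, and the 6 with myelin are the 6 with an even number, so myelin and anything tied to that alternation cannot be told apart.

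The promoter of Mobp is shown because Mobp is the gene on which the contrast turned. It covers the 250 bases before the RefSeq transcription start, on chr9:120149492-120149741 of GRCm38.p6, plus strand. The gene start that goes with the counts, 120149707, lies inside this window. Its last bases are thus part of Mobp as counted here. Capitals mark each CTTTGT, the core bound by SOX factors. SOX10 is the SOX factor that drives myelin genes in oligodendrocytes.
Mobp promoter: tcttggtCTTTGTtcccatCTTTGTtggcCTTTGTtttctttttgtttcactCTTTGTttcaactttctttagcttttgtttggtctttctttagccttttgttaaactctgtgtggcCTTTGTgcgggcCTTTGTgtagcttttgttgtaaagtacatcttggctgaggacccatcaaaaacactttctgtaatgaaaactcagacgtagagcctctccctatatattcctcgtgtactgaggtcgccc
Searched on both strands, CTTTGT occurred 6 times, each on the plus strand and with no overlap between matches. Of 32851 promoter windows of the same length, 16.5% held at least 1 match and 0.00304% held as many as Mobp, which is Mobp itself. Promoters of 3 other members were listed, with at most 1 match for Mag, 1 for Cnp and 0 for Gsn. Sox10 RNA was at 0 in 11 libraries and had 21 counts in Myelin Alone 958.

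Mobp encodes a small basic protein of compact myelin (ENSMUSG00000032517, mm10 chromosome 9, 120149707 to 120181484). It had 16, 16 and 13 counts in Full Tumor 957, 958 and 016, and 10, 8 and 8 counts in Myelin Alone. None was counted in Tumor without Myelin or in Control, where each library had 0. All 6 libraries with myelin thus held Mobp reads and all 6 without were at 0.

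The libraries with myelin held 71 Mobp counts, against 0 counts in the others. Set against a floor of 3 counts over the 6 libraries without myelin, the point value of Mobp with myelin was 23.3-fold higher. That ratio is not a lower limit, since the 71 counts carry an error of their own. By library Mobp stood at 0.441 to 0.912 CPM with myelin, above the 0.147 to 0.182 CPM that 3 counts are worth in single libraries without it. The exact Poisson 95% intervals of the counts were 9.15 to 26.0 for 16, 3.45 to 15.8 for 8 and 0 to 3.69 for 0. The intervals for 8 and for 0 thus overlap in single libraries. Such intervals cover counting error only, since reads without molecular identifiers are not independent molecules.

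The pattern was rare in the table, which is a description only, since Mobp was picked by this contrast. Of 24728 genes, 2, or 0.00809%, had a count in all 6 libraries with myelin and 0 in all 6 without. The other was Gm15707, a processed pseudogene with 1 to 3 counts per library and 9 in all. The reverse pattern occurred for 0 genes (0%). The split by tumor material gave such genes too. Vash1, with 24 counts, and Apol9b, with 176, were counted in all 6 libraries with tumor material and in none without. There were 705 genes with a count in exactly 6 of the 12 libraries, and in 2 of these the 6 were the libraries with myelin. Among the 13414 tested genes, 9 (0.0671%) lay higher in every library with myelin than in every library without, Mobp, Abcg1 and Fcgr2b among them, and 15 (0.112%) lay lower.

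**Figure D1:**
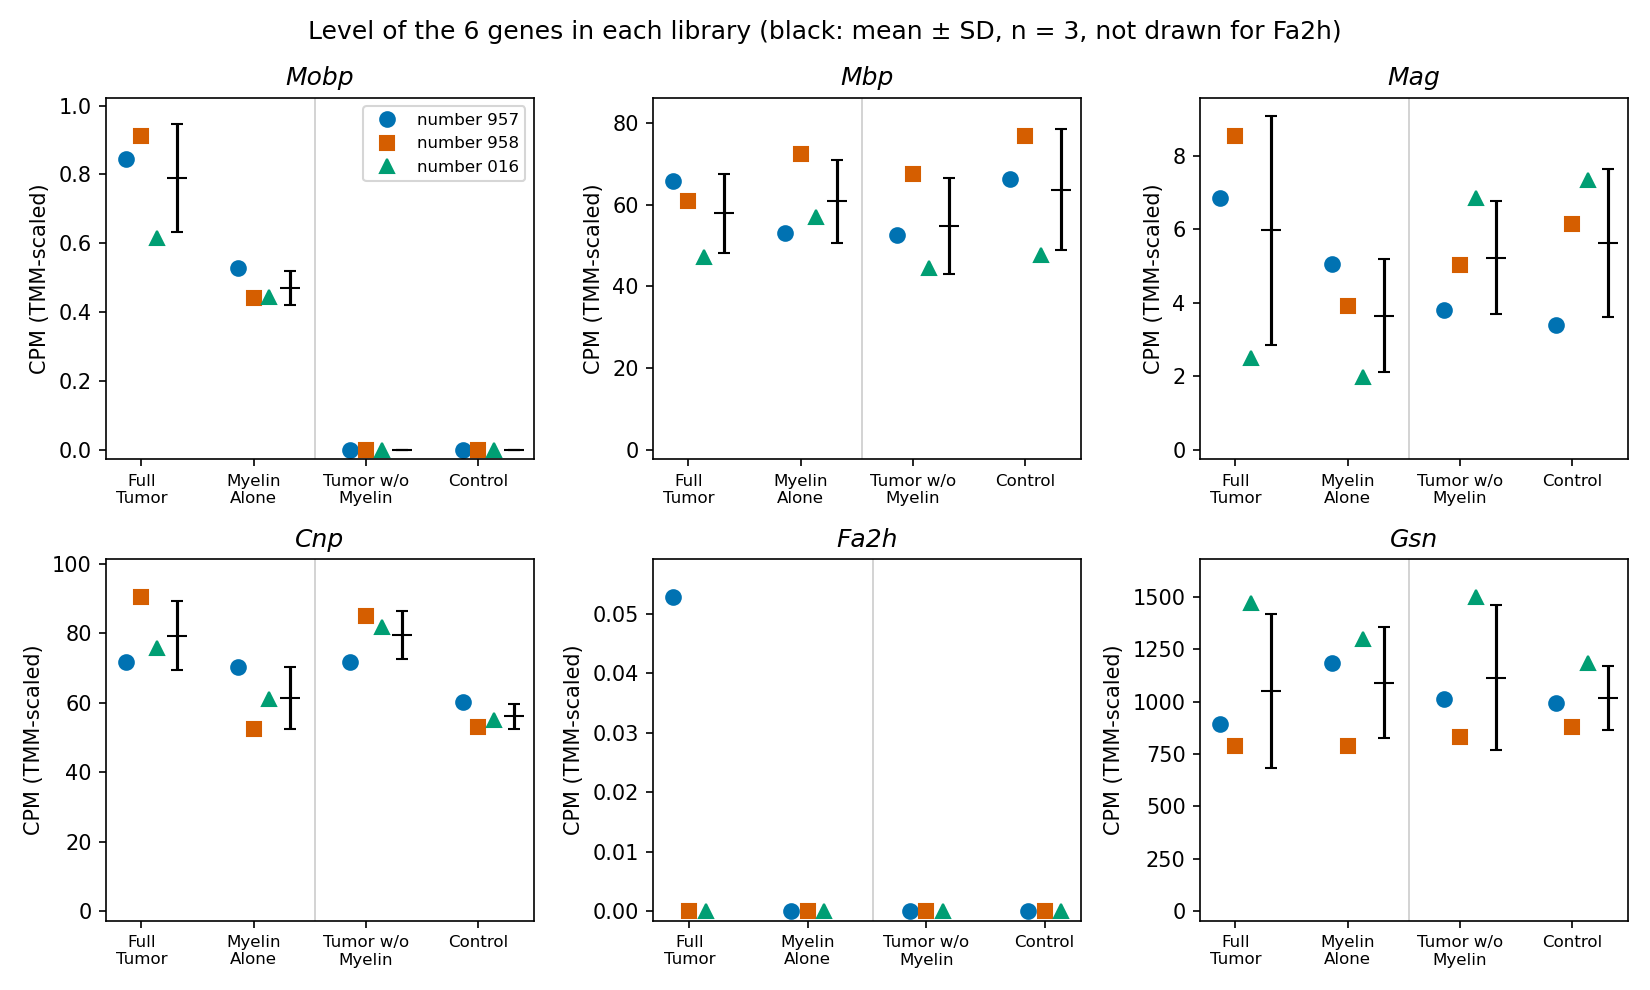
CPM (TMM-scaled) of each of the 6 genes by group, with a point per library, shaped by mn number, and black bars for mean ± SD over 3 libraries; the line parts groups with myelin (left) from those without. Mobp lies at 0.441 to 0.912 CPM left of the line and at 0 right of it, Fa2h had 1 count in 1 library, and the values of Mbp, Mag, Cnp and Gsn overlap across the line.

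Within the libraries with myelin, Mobp counts also separated by tumor material, without passing a test. This comparison crosses the one by which the genes were picked. Mobp passed the filter on low counts only through Full Tumor, the higher side here, so its test below is a description. Mobp averaged 0.790 ± 0.156 CPM in Full Tumor and 0.470 ± 0.0488 CPM in Myelin Alone (SD, n = 3), 1.68-fold apart, with 45 counts against 26. The 3 libraries of Full Tumor lay above the 3 of Myelin Alone, which held for 3.62% of tested genes, and the log2 ratios by number 957, 958 and 016 were 0.68, 1.05 and 0.47. The difference did not pass edgeR's quasi-likelihood test, with a log2 fold change of 0.74 ± 0.80 (edgeR adjusted p = 1.00, or 0.933 after the mn number was added to the fit). In this comparison edgeR called 0 of 13414 genes (0%), 402 had an unadjusted p below 0.05, and 19 were called by DESeq2. With both groups without myelin at 0, no interaction of myelin and tumor material and no pooled tumor effect could be estimated for Mobp.

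Mobp counts were even beside those of genes with a like total, which is a description only. Genes with 40 to 160 counts over the 12 libraries, limits chosen after the values were seen, numbered 2702, and 1181 of them had a count in each library with myelin. Of these, 836 also had a count in every library without myelin, 340 were at 0 in 1 to 3 of those libraries, 3 in 4, 1 in 5, and 1, Mobp, in all 6. That tally uses the contrast by which Mobp was picked and tests nothing. The variance of scaled counts within Full Tumor and Myelin Alone, over their mean, was 0.397 for Mobp and 2.05 for the median gene of the 1181, and 4.91% were as low as Mobp or lower. Most genes of this range thus varied more between libraries of a group than Mobp did. This value too tests nothing, since Mobp was picked by its counts in these same 6 libraries. The range was also set on totals over 12 libraries, whereas all Mobp counts lay in 6.

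**Figure D2:**
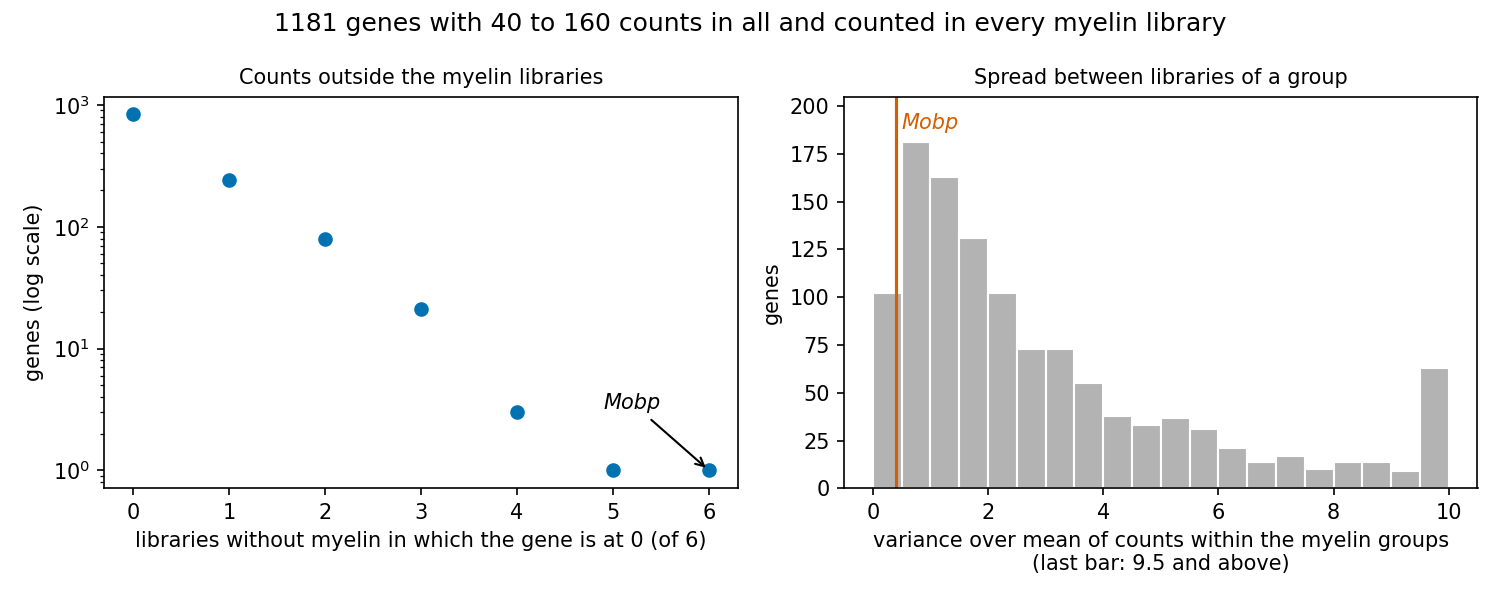
Left, the number of genes (log scale) by how many of the 6 libraries without myelin were at 0, for 1181 genes with 40 to 160 counts and a count in each library with myelin; Mobp is the single gene at 6. Right, the number of genes by variance over mean of scaled counts within the 2 groups with myelin, where the line marks Mobp at 0.397 and the median gene was 2.05.

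Part of the reads could belong to another gene. Gm38642, a noncoding transcript on the same strand, overlaps the last 2447 bases of Mobp in the GENCODE M21 annotation and has no entry in the table analysed here. The counts do not show which exons the reads came from.

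Mbp encodes the basic protein that joins the cytoplasmic faces of compact myelin, and the same gene also gives longer golli transcripts, known from immune cells, which counts per gene cannot separate (ENSMUSG00000041607, chromosome 18, 82475146 to 82585637). It was well counted in every library. It stood at 65.8, 61.0 and 47.1 CPM in Full Tumor 957, 958 and 016 and at 53.1, 72.5 and 57.0 CPM in Myelin Alone. It stood at 52.6, 67.6 and 44.4 CPM in Tumor without Myelin and at 66.4, 76.9 and 47.7 CPM in Control. The libraries with and without myelin overlapped fully, at 59.4 ± 9.05 and 59.3 ± 12.9 CPM (SD, n = 6 each). Libraries without myelin, Control included, thus held as much Mbp as those with it. Number 016 had the lowest Mbp mean, 49.1 CPM, against 59.5 for 957 and 69.5 for 958. A difference of the size seen for Mobp, under 1 CPM, would not be detectable against this spread.

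Mag encodes an adhesion glycoprotein of the innermost myelin layer, facing the axon (ENSMUSG00000036634, chromosome 7, 30899176 to 30914873). It stood at 6.86, 8.55 and 2.50 CPM in Full Tumor 957, 958 and 016 and at 5.06, 3.92 and 2.00 CPM in Myelin Alone. It stood at 3.80, 5.02 and 6.86 CPM in Tumor without Myelin and at 3.41, 6.15 and 7.35 CPM in Control. The direction of myelin differed between numbers. In 957 both libraries with myelin lay above both without, and in 016 both lay below. Libraries with myelin averaged 4.81 ± 2.54 CPM and those without 5.43 ± 1.62 CPM (SD, n = 6 each). Of the 4 genes counted in every library Mag varied most, with a ratio of highest to lowest CPM of 4.29, where Gsn had 1.90, Mbp 1.73 and Cnp 1.72.

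Cnp encodes a cyclic nucleotide phosphodiesterase of the uncompacted, cytoplasm-filled parts of myelin, and it is made at lower levels in many other cells (ENSMUSG00000006782, chromosome 11, 100574904 to 100591729). It showed no separation by myelin, with 70.3 ± 13.0 CPM in libraries with myelin and 67.7 ± 13.7 CPM in those without (SD, n = 6 each). Its values separated by tumor material instead. Cnp stood at 71.7, 90.4 and 75.8 CPM in Full Tumor 957, 958 and 016 and at 71.6, 84.9 and 81.6 CPM in Tumor without Myelin. It stood at 70.4, 52.4 and 61.1 CPM in Myelin Alone and at 60.1, 53.1 and 55.1 CPM in Control.

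The 6 libraries with tumor material all lay above the 6 without, by a narrow margin at 71.6 against 70.4 CPM, which held for 0.574% of tested genes. Means were 79.4 ± 7.62 CPM with tumor material and 58.7 ± 6.75 CPM without (SD, n = 6 each), 1.35-fold apart. The log2 fold change was 0.44 ± 0.11 and did not pass (edgeR adjusted p = 0.234). EdgeR's adjusted p was 0.0536 with the mn number as a block, and DESeq2's was 0.0241, past the threshold of 0.05. Without number 958, where the ratios were largest, the log2 fold change was 0.29 (edgeR adjusted p = 1.00). It was 0.58 without 957 and 0.44 without 016 (edgeR adjusted p = 0.9999 and 0.557). Each of these fits lacks a library of every group, so the adjusted p does not single out 958.

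By number 957, 958 and 016 the log2 ratio of Cnp was 0.03, 0.79 and 0.31 for Full Tumor over Myelin Alone and 0.25, 0.68 and 0.57 for Tumor without Myelin over Control. All 6 were positive. Dnajc7, a chaperone cofactor gene on the opposite strand, overlaps 8912 bases of Cnp, and without a known strand setting shared reads cannot be told apart. Dnajc7 averaged 122 ± 11.5 CPM with tumor material and 116 ± 5.66 CPM without (SD, n = 6 each), and its ranges overlapped. The microglia list, 8 of 9 genes with an entry, also separated by tumor material. It summed to 733 to 1123 CPM with tumor material and 403 to 683 CPM without, and it includes Olfml3 and Cx3cr1, which macrophages also express. Tmem119, which defines microglia, had 48, 46 and 313 counts in Full Tumor 957, 958 and 016 and 38, 106 and 468 in Tumor without Myelin, so number 016 held most of them. It had 26, 42 and 108 counts in Myelin Alone and 20, 11 and 52 in Control. P2ry12 had 189 counts with tumor material and 65 without, and Sall1 had no entry. The part of this list in the Cnp result was not tested.

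Fa2h, the hydroxylase that makes the 2-hydroxylated fatty acids of myelin galactolipids (ENSMUSG00000033579, chromosome 8, 111345135 to 111393824), was at or under the limit of detection. It had 1 count in Full Tumor 957, worth 0.0528 CPM, and 0 in the other 11 libraries. It did not pass the filter on low counts, and no direction can be read from it.

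Gsn encodes gelsolin, which severs and caps actin filaments and is abundant in macrophages as well as in mature oligodendrocytes (ENSMUSG00000026879, chromosome 2, 35256380 to 35307892). It had 13856 to 31143 counts per library. Levels were 895, 790 and 1471 CPM in Full Tumor 957, 958 and 016 and 1186, 790 and 1299 CPM in Myelin Alone. They were 1012, 830 and 1500 CPM in Tumor without Myelin and 991, 881 and 1184 CPM in Control. The mn number set Gsn apart more than the group did, with a mean of 1363 CPM in 016, 1021 in 957 and 823 in 958. Libraries with myelin averaged 1072 ± 288 CPM and those without 1067 ± 245 CPM (SD, n = 6 each), and the 3 ratios of Full Tumor over Tumor without Myelin were all slightly negative on the log2 scale, at −0.18, −0.07 and −0.03.

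**Figure D3:**
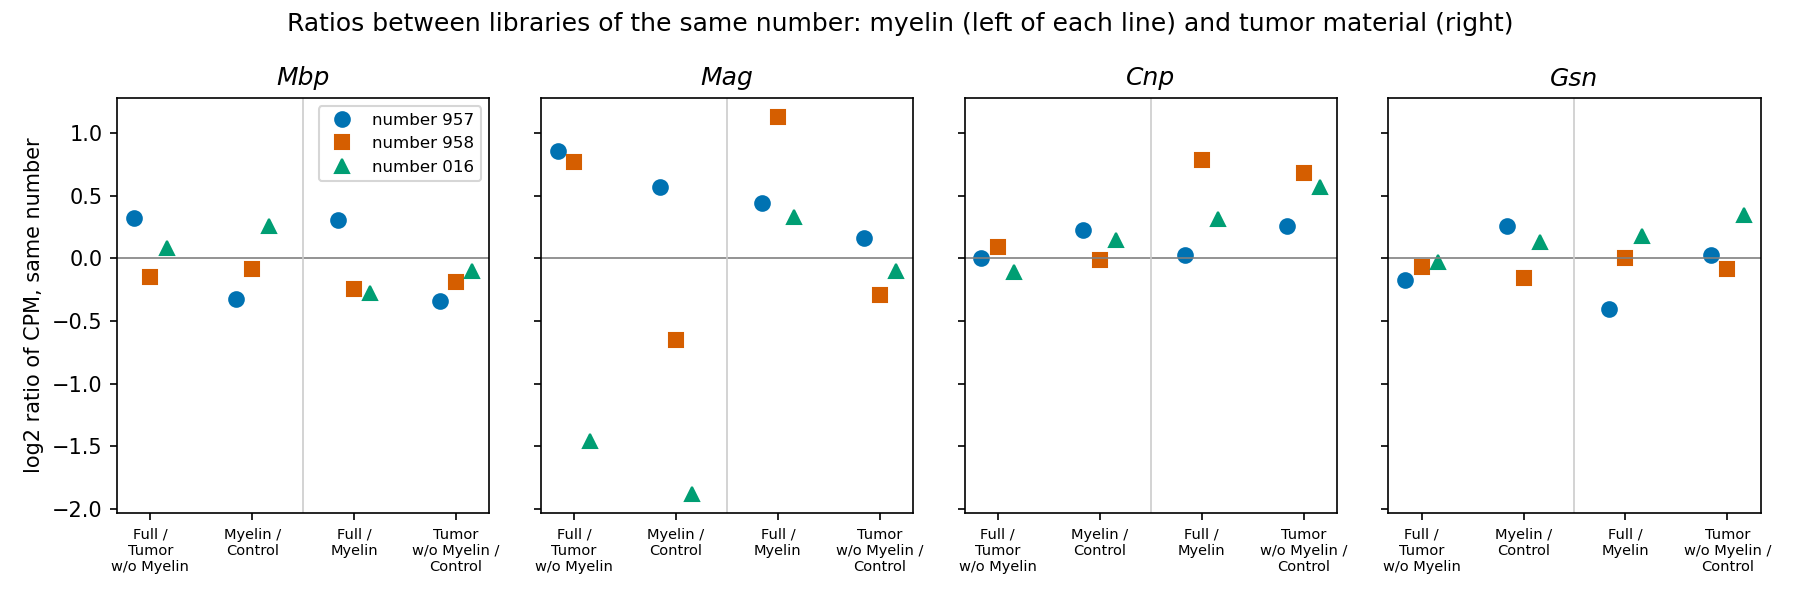
Log2 ratio of CPM between libraries of the same mn number for Mbp, Mag, Cnp and Gsn, with a point per number; the pairs left of each line differ in myelin and those right of it in tumor material. Cnp is above 0 in all 6 pairs that differ in tumor material, and Mag ranges between −1.88 and 0.85 in the pairs that differ in myelin.

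Per kilobase of exon, the mean level over the 12 libraries followed the order Gsn, Cnp, Mbp, Mag and Mobp, at 339, 19.0, 7.01, 1.26 and 0.0460 CPM per kilobase. Their places among tested genes were the percentiles 99.1, 79.6, 61.4, 29.3 and 0.612. In oligodendrocytes Mbp is among the most abundant messages of all.

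The tests that the choice of genes left free gave no calls for them. Tumor libraries against the others gave 0 of 5 tested members past edgeR's adjusted p of 0.05, Mobp having no estimate there, where 0.0745% of all tested genes were called, with 1 at an unadjusted p under 0.05 (Cnp) and 1 called by DESeq2 (Cnp). The log2 fold changes of Mbp, Mag and Gsn were −0.14 ± 0.16, 0.30 ± 0.36 and 0.04 ± 0.20 (edgeR adjusted p = 1.00 for each). The interaction of myelin and tumor material gave 0 of 5, where 0% of tested genes were called, 0 at an unadjusted p under 0.05 and 0 by DESeq2. Mobp passed the filter only through Full Tumor, the group where its counts were highest. The remaining 4 members had fold changes with myelin, as log2, of 0.01 for Mbp, −0.22 for Mag, 0.06 for Cnp and 0.01 for Gsn.

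Other oligodendrocyte genes were read beside Mobp. The list of 45, what remains after the 6 were taken out with results known, had 31 with an entry, of which 13 were tested. With myelin, edgeR called 0 of the 13 higher and 0 lower, with 0 at an unadjusted p under 0.05 and 0 called by DESeq2. With the block 0 were called and 2 had an unadjusted p under 0.05. As 0% of all tested genes were called, nothing particular to the list can be read from its count, and a shift of under 1 CPM would not be detectable in its abundant genes. Their median log2 fold change was 0.03 with 7 of 13 positive, against 0.00259 and 50.6% for all tested genes. Of the 18 genes with an entry that were too low to test, 4 were counted in more libraries with myelin than without, 12 in fewer and 2 in equally many. They summed to 165 counts with myelin and 231 without. None of the 31, 0 genes, had the pattern of Mobp.

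Of the membrane proteins of the list, the tetraspanin Tspan2 had 48 counts with myelin and 36 without, and the oligodendrocyte-myelin glycoprotein Omg 20 and 17. Mog, Mal, Cldn11, Opalin and Ermn had no entry in the table and are not analysed here.

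Lipid enzymes of the list divided by level. Cers2, the synthase of very long chain ceramides, and Elovl1, the elongase before it, are used by macrophages too. Cers2 averaged 556 CPM over the libraries and had a log2 fold change of −0.05 with myelin, and Elovl1 averaged 473 CPM with −0.01. Ugt8a, which makes galactosylceramide, had 0 counts with myelin and 3 without. Of the lineage transcription factors, Olig1 had 41 counts with myelin and 58 without, Olig2 0 and 1, and Myrf 31 and 32. The zinc finger gene St18 averaged 16.7 CPM, with a log2 fold change of 0.03 with myelin.

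Cytosolic proteins included Qdpr, dihydropteridine reductase, at 97.6 CPM and a log2 fold change of 0.03 with myelin, and Trf, transferrin, the iron carrier, which oligodendrocytes and macrophages both make. Trf was the gene of the list that passed in a comparison. With tumor material it averaged 412 ± 172 CPM, against 303 ± 101 CPM without (SD, n = 6 each), a log2 fold change of 0.43 ± 0.30 with group only (edgeR adjusted p = 1.00) and 0.42 ± 0.06 after the mn number was added as a block (edgeR adjusted p = 0.00636). With the block 2.25% of all tested genes were called in that comparison, and Trf was 1 of the 13. Tumor without Myelin against Control gave the same call for Trf (0.55 ± 0.09, edgeR adjusted p = 0.0211 with the block), where 0.745% were called.

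**Figure D4:**
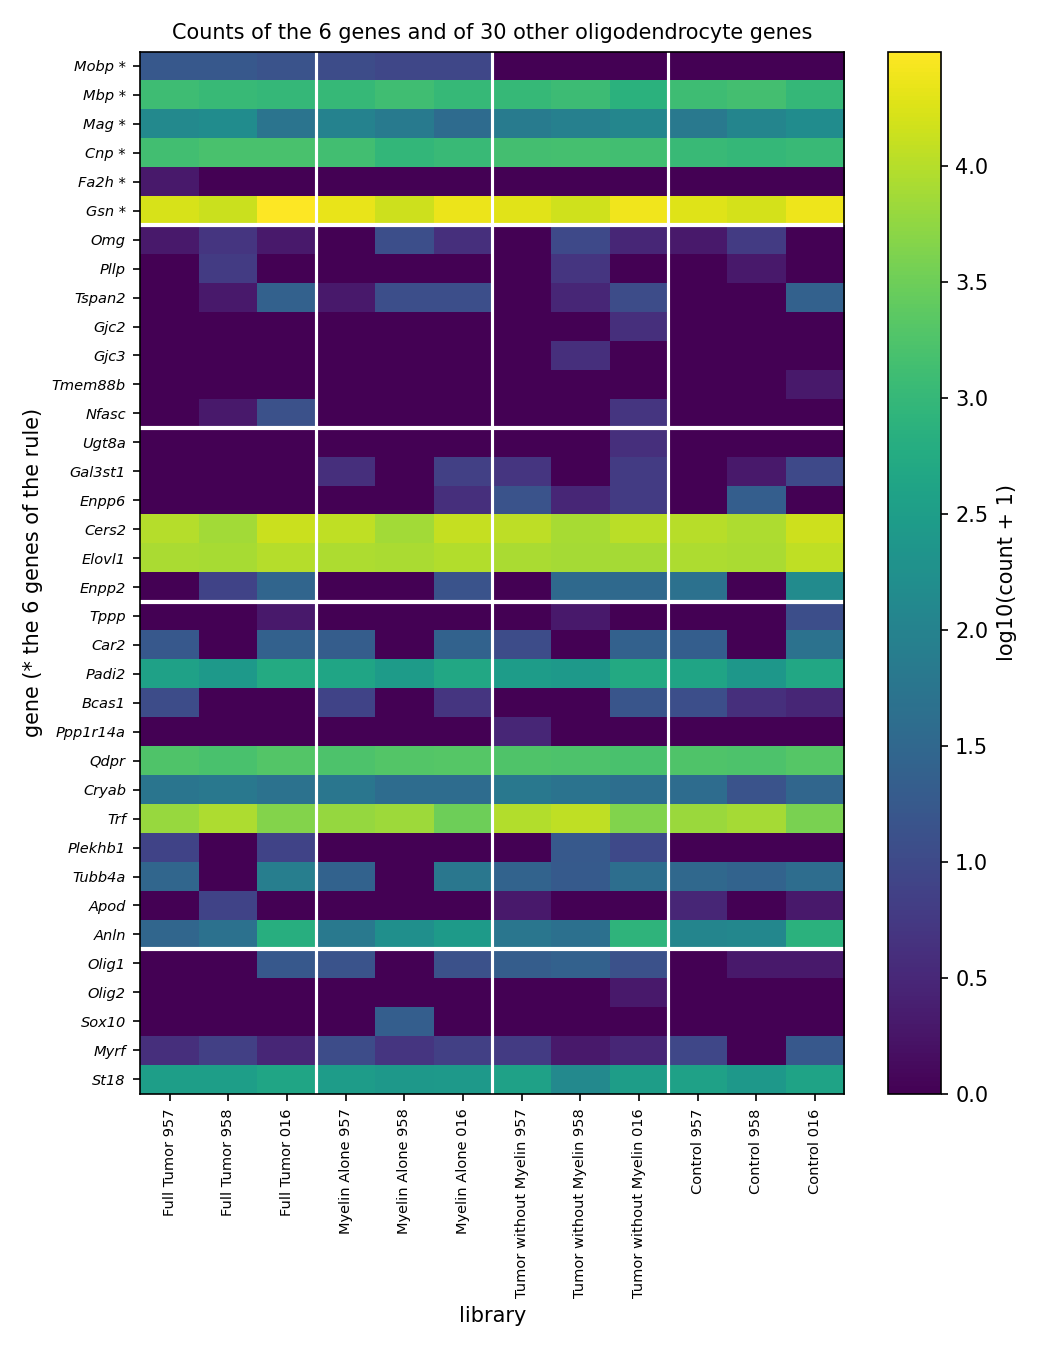
Counts as log10(count + 1) of the 6 genes (starred) and of 30 other oligodendrocyte genes with an entry, by library; horizontal lines part the 6 genes, membrane proteins, lipid enzymes, cytosolic proteins and lineage transcription factors, and vertical lines the groups. The top row, Mobp, is the only row of the 36 that is above 0 in all 6 libraries with myelin and at 0 in all 6 others.

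Markers of other cells of brain and nerve were read beside Mobp. Of 12 neuron genes 7 had an entry, and they summed to 1.00 to 4.14 CPM with myelin and 1.76 to 4.76 CPM without; Snap25, Syt1 and Stmn2 had no entry, and Syp and Camk2a held most of the reads. Of 10 astrocyte genes 8 had an entry, at 33.6 to 117 CPM with myelin and 67.0 to 138 CPM without. Nearly all of that was Aldoc, an aldolase, with Gja1, a gap junction gene, next. The astrocyte filament gene Gfap had 15 counts with myelin and 14 without, all in number 016. The Schwann cell list, with the transcription factor gene Egr2, summed to 38.3 to 106 CPM with myelin and 38.8 to 182 CPM without. Of 6 genes in it 4 had an entry, and Egr2 held nearly all of the reads. Ncmap, a myelin protein gene of that list named after its values were seen, had 15, 0 and 0 counts in Full Tumor 957, 958 and 016, 11, 13 and 1 in Myelin Alone, and 0 in all 6 libraries without myelin. Its 40 counts thus lay in 4 of the 6 libraries with myelin. Ncmap passed the filter on low counts only through libraries with myelin, so no test of that split is read for it. None of these 3 lists lay higher in every library with myelin than in every one without, nor did the endothelial, mural, T cell, erythroid, neutrophil or microglia list. Their part in the Mobp result was not tested.

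For each tested member the 3 genes with the most similar profile were found, by the mean absolute difference of centred log2 CPM over the 12 libraries. For Mobp these were Gsta3, Hsd17b14 and C1rl, at 0.81, 0.84 and 0.84, with a median of 1.37 over all candidates. For Cnp they were Lgmn, a lysosomal protease, Ttc14 and Itm2c, at 0.08, 0.10 and 0.12, with a median of 0.35. For Mbp they were Guk1, Irf3 and Rpl10 (0.05, 0.06 and 0.07, median 0.36), for Mag Gm4117, Fancc and Hdhd2 (0.21, 0.28 and 0.34, median 0.58), and for Gsn Ggps1, Plcg2 and Dhx15 (0.06, 0.07 and 0.08, median 0.40).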

How the data were processed

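The authors deposited raw counts per gene, whole numbers without normalization, for 12 libraries. Per the labels' protocols, total RNA of sorted cells was primed with oligo-dT and amplified after template switching. The build is mm10, per the submitters' processing notes. The sources used here do not give the aligner, the counting program or whether strand was used. CPM (library total times the TMM factor, 0.965 to 1.06) and tests were computed from the counts with edgeR 4.0.16 in R 4.3.3 (glmQLFit, glmQLFTest, filterByExpr). A single fit on all libraries had group as its only term. It kept 13414 of 24728 genes, and 5 of the 6. Two-sided p-values had Benjamini-Hochberg adjustment over tested genes, with a threshold of 0.05. Errors of log2 fold changes are the absolute value over the square root of F.

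Across genes, deviations from group means of libraries with the same number had a correlation over 0.1 in each of 18 pairs (0.120 to 0.631). Libraries of a number thus went together, though pairs of different numbers are not given for comparison. The reported fit leaves the number out. Adding it raised the calls over all genes from 10 to 302 with tumor material and from 0 to 15 with myelin. Values "with the block" add the mn number.

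The procedure was tested on simulated data. Members and lists were chosen with earlier results of these data known. Named were the members, 10 fixed oligodendrocyte genes, the 2 most abundant others of each oligodendrocyte, precursor, neuron and astrocyte list, any oligodendrocyte gene that passed, and the 3 nearest profiles of each member; other genes were named after their values were seen. Some genes are not reported here. Alternatives were DESeq2 1.42.0, other scalings, no filter, the block and leaving out libraries or numbers. Exon lengths came from GENCODE M21, where 24474 of 24670 matched genes had the same start and end.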

Additional observations from a re-analysis of the deposited data

How the results depend on the processing

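The count of members whose libraries with myelin all lay above the others was 1 (Mobp) with size factors or library totals. It was also 1 without a filter, and between 1 and 1 when libraries or numbers were left out. The block and DESeq2 do not apply to it. For Mobp this outcome was fixed, since no scaling moves a count of 0 and leaving out libraries keeps a full separation. Members called with tumor material were 0, 0 to 0 with libraries or numbers left out, and 1 with DESeq2 (Cnp). The interaction stayed at 0 called members throughout. Among the other oligodendrocyte genes 0 were called with myelin under each alternative, and with tumor material 0, except 1 with the mn number as a replicate block (Trf). The block changed no other call among these genes. The log2 fold change of Cnp with tumor material was 0.40 to 0.44 over scalings, filter, block and DESeq2, and 0.29 to 0.58 with libraries or numbers left out. That of Mobp between Full Tumor and Myelin Alone was 0.58 to 0.90 with libraries or numbers left out. Over all genes, calls with tumor material were 10 in the reported fit, 302 with the block, 2 with library totals, 48 without a filter, 174 with DESeq2 and 0 to 115 with libraries or numbers left out. With myelin they were 0, against 15, 2 and 17 with the block, without a filter and with DESeq2. Between Full Tumor and Myelin Alone they were 0, against 15 with the block, 19 with DESeq2 and 51 without number 016. The cause was not tested. Depth limits Mobp, at 8 to 16 reads in each library with myelin.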

Other observations

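Among 13 genes of oligodendrocyte precursors and of glioma cells that resemble them, 12 had an entry, and 12 were counted in some library with tumor material against 5 in some library without it. Their summed level, 50.0 to 121 CPM with tumor material and 37.0 to 143 CPM without, was set by Pdgfb and Cspg4, which the macrophages held in every library. Ncan, the proteoglycan neurocan, chosen here after its values were seen, had 0, 4 and 143 counts in Full Tumor 957, 958 and 016, 0, 25 and 144 counts in Tumor without Myelin, and 0 counts in every library of Myelin Alone and Control. Most of its counts lay in number 016, and 957 had 0. Ncan passed the filter on low counts only through libraries with tumor material, so no test of that split is read for it. Bcan and Ptprz1, also chosen after their values were seen, had 24 and 30 counts with tumor material and 0 and 0 without. Those reads lay in 3 of the 6 libraries with tumor material for Bcan and 3 for Ptprz1. Mobp was counted in all 6 libraries with myelin and in 0 of the 3 libraries of Tumor without Myelin, values that belong to the contrast by which it was picked. The part of precursor or tumor cells in the Mobp result was not tested.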
